A study of Mus musculus with 44 samples.

Results

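The 34 genes described here are markers of the main cell types of the mouse kidney, taken from a list of names and not from measured values. They comprise 4 markers of podocytes, 3 of the proximal tubule, 4 of the loop of Henle and distal tubule, 4 of other epithelium, 7 of endothelium, 5 of stromal cells and 7 of immune cells. All 34 were found among the 24733 genes with any value above 0, and 32 of the 34 had a mean of at least 1 TPM, a transcript abundance scaled to length and library total, over the libraries and entered the tests over 12874 genes. The T-cell marker Cd3e (mean 0.423 TPM) and the B-cell marker Cd79a (mean 0.678 TPM) did not.

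The libraries are polyA-selected RNA from whole kidneys of 129SV mice aged 8 to 12 weeks, fed only at night. One genotype is wild type (WT, 12 libraries); the other is labelled KO (12 libraries) and, by the design text (Bmal -/-), lacks Bmal1 (Arntl), a transcription factor at the core of the circadian clock. Samples cover 6 zeitgeber times (ZT0, ZT4, ZT8, ZT12, ZT16 and ZT20, in hours), with 2 libraries per genotype and time, lettered A and B. The design text names neither the cells in which the gene was deleted nor the promoter used, and nothing in the labels says whether a library is 1 animal or a pool, so the p-values measure the spread between these libraries.

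The kidney filters blood in glomeruli, where podocytes wrap capillaries lined by fenestrated endothelium. The filtrate then passes the proximal tubule, which takes back most solutes and protein, the loop of Henle and distal tubule, which set salt, calcium and magnesium balance, and the collecting system, which drains into a pelvis lined by urothelium. A marker is a gene whose transcript is concentrated in 1 of these cell types, and in whole-kidney RNA its level depends both on how many such cells were sampled and on how much of the transcript each held; fewer cells of a type and less RNA per cell cannot be told apart here.

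Some libraries stood apart. Arntl itself did not fall in the KO libraries (4.19 to 6.28 TPM in KO, 0.295 to 12.9 TPM across times in WT), but the clock gene Cry1 lay between 11.5 and 17.8 TPM in 11 KO libraries and the clock repressor Nr1d1 between 1.23 and 3.46 TPM. The library labelled KO ZT4 A held 1.03 TPM of Cry1 and 23.8 TPM of Nr1d1, close to WT at ZT4, so it goes against its label. The library labelled KO ZT12 A held 0.099 TPM of the Y-linked gene Ddx3y, against 11.7 to 17.5 TPM in the other 23 libraries. Kap, an androgen-regulated proximal tubule gene, lay at 10479 TPM in that library, at 14822 to 31169 TPM in the KO libraries other than these 2, and at 30915 to 40646 TPM in WT; Ddx3y and Kap were looked up after other values had been seen. The deposited values carry no read counts, so the depth of each library is unknown.

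Across all 12874 genes, 60.9% differed between the genotypes, 50.9% higher and 10% lower in KO (limma on log2(TPM + 0.1), adjusted p under 0.05). The median gene was 0.15 higher in KO on the log2 scale, and each member's difference is to be read against that shift. After median-of-ratios scaling, which sets the libraries' median gene level, 44.3% of genes differed, 22.1% higher and 22.2% lower. Among the 32 tested markers 15 rose and 5 fell, a share close to that over all genes, with a median difference of 0.05; after scaling 11 rose and 10 fell, with a median of -0.09. Without the libraries labelled KO ZT4 A and KO ZT12 A the counts were again 15 and 5. The share of all genes called in that fit is not given here, so these counts are not set against it. No marker separated all 12 KO from all 12 WT libraries, as 1.67% of all genes did; without the library labelled KO ZT4 A 2 of 32 did, Wt1 and Krt7, against 10.1% of all genes.

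**Figure D1:**
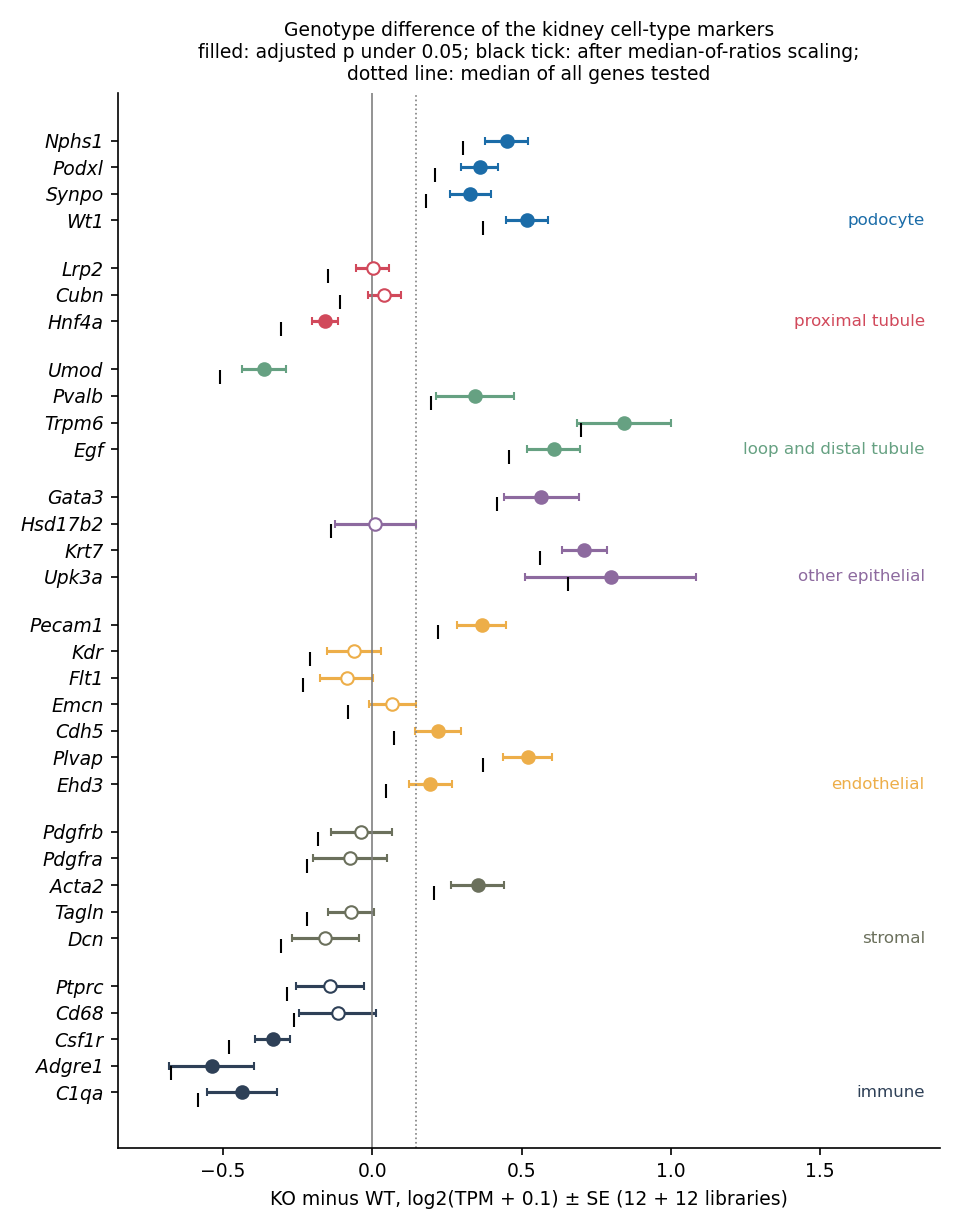
Difference between KO and WT in log2(TPM + 0.1) with its standard error (x axis) for the 32 tested markers (y axis), coloured by cell type, over 12 libraries per genotype. Filled points passed an adjusted p of 0.05, black ticks give the difference after median-of-ratios scaling, and the dotted line is the median of all genes (0.15). All 4 podocyte markers lie to the right of that line and all 5 immune markers to the left of zero.

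Promoter sequences are shown for 4 of the members described below: 3 with strong genotype differences or a daily rhythm (Nphs1, Krt7 and Umod) and Egf, which was added because it held the only match to a clock motif. They were chosen after their values were seen. RefSeq promoter windows (GRCm38.p6, 250 bases before to 50 after a start) existed for 21 of the 34 members, with 25 windows in all. Each is printed 5′ to 3′ on the gene's strand, and capitals mark a motif match on either strand.
Nphs1, chr7:30459808-30460107, plus strand: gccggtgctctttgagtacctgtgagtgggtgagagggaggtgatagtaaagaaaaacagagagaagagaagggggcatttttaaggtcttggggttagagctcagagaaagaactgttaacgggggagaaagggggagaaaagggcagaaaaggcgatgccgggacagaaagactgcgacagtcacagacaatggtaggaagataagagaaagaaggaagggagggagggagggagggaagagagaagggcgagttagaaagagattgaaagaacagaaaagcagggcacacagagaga
Krt7, chr15:101412153-101412452, plus strand: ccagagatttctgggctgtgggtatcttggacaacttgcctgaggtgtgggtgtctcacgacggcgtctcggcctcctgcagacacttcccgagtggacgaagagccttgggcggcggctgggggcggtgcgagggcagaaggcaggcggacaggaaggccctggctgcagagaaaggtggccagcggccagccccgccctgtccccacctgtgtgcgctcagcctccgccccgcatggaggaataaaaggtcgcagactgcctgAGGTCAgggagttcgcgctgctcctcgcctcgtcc
Umod, chr7:119479213-119479512, minus strand: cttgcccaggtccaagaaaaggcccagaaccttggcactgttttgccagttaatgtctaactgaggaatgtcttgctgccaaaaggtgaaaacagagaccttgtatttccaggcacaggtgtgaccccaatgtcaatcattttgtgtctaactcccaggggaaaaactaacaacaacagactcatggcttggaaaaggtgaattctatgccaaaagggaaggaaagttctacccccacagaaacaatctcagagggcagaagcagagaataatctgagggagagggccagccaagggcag
Egf, upstream start, chr3:129755273-129755572, minus strand: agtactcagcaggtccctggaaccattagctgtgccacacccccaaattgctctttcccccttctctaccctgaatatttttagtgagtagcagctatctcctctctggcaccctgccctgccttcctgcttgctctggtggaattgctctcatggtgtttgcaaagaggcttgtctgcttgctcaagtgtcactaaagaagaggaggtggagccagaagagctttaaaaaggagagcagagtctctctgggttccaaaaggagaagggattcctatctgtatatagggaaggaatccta
Egf, internal start, chr3:129725037-129725336, minus strand: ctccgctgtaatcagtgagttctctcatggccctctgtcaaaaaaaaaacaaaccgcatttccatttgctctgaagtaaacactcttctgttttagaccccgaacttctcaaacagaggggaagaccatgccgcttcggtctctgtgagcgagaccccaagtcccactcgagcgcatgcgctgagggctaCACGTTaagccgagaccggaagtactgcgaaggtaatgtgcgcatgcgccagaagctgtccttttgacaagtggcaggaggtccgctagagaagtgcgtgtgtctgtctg

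In all, 6 motifs were searched on both strands, chosen with values known; they do not overlap one another in these windows. The E-box CACGTG, the core of the site bound by BMAL1 with its partner CLOCK, was in 0 of the 25 windows and in 7.15% of all 32851 promoter windows. The related letters CACGTT were in 1 window, that of the internal Egf start, 60 bases before it, and in 4.68% of all windows. The D-box TTATGTAA was in 0 windows (0.938% of all), the HNF1 site in 0 (0.00913% of all) and the CArG box in 0 (1.63% of all). The nuclear receptor half-site TGACCT was in 3 windows, those of Krt7, Emcn and Ehd3, and in 16.3% of all. A match is a description of letters in the window and not of binding.

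All 4 podocyte markers rose in KO, both as deposited and after scaling, where 50.9% and 22.1% of all genes did. Nphs1, which encodes nephrin of the slit diaphragm between podocyte foot processes, lay at 7.38, 9.78 and 12.0 TPM in WT (lowest, median and highest of 12 libraries) and at 11.5, 13.5 and 16.3 TPM in KO. Every KO library was above the WT median, and the ranges met only between 11.5 and 12.0 TPM. The difference was 0.45 ± 0.07 (log2, SE; adjusted p = 2.92e-05), with the same sign at 6 of 6 times. Wt1, the transcription factor that keeps podocyte identity, lay at 3.57, 3.96 and 4.796 TPM in WT and at 4.42, 5.94 and 7.84 TPM in KO. Its lowest KO value was the library labelled KO ZT4 A; the other 11 began at 5.01 TPM, above every WT library, which without that library was true in this direction of 8.34% of all genes. Wt1 differed by 0.52 ± 0.07 (adjusted p = 5.94e-06). Podxl, the sialoprotein that coats the foot processes, lay at 30.8, 36.2 and 40.2 TPM in WT and 34.7, 47.1 and 59.0 TPM in KO, with overlapping groups. It rose by 0.36 ± 0.06 (adjusted p = 6.41e-05). Synpo, an actin-associated protein of the foot processes, lay at 9.09, 10.8 and 13.3 TPM in WT and 10.7, 13.7 and 18.1 TPM in KO. The groups overlapped, and the rise was 0.33 ± 0.07 (adjusted p = 4.77e-04). After scaling these 4 differences were 0.30, 0.37, 0.21 and 0.18 for Nphs1, Wt1, Podxl and Synpo. The highest KO value of each of these 4 markers was the library labelled KO ZT12 A, which held little Ddx3y. Of 7 further podocyte genes 6 rose and 0 fell; Ptpro, a podocyte receptor phosphatase, rose by 0.63 ± 0.07. After scaling 3 of the 7 were called higher.

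The proximal tubule markers are among the most abundant members. Lrp2, which encodes the endocytic receptor megalin, lay at 102, 128 and 140 TPM in WT and 95.3, 127 and 144 TPM in KO. The groups lay over each other, with a difference of 0.0014 ± 0.055 (adjusted p = 0.985), but relative to the scaled median Lrp2 was lower by 0.15 (adjusted p = 0.0181). Cubn, its partner cubilin, had means of 38.9 ± 2.88 TPM in WT and 40.2 ± 4.65 TPM in KO (SD, n = 12) and passed the test on neither scale. Hnf4a, a transcription factor of proximal tubule cells, lay at 132, 151 and 165 TPM in WT and 117, 132 and 153 TPM in KO. It fell by 0.16 ± 0.04 (adjusted p = 0.00367) and by 0.31 after scaling, the same sign at 6 of 6 times, in overlapping groups. Of 9 further proximal tubule genes 4 rose and 4 fell, where 50.9% of all genes rose and 10% fell. After scaling 1 was higher and 4 lower, where 22.1% and 22.2% of all genes were. Slc5a2, the sodium-glucose cotransporter SGLT2, rose by 0.45 ± 0.08 while Acsm2, a mitochondrial medium-chain acyl-CoA synthetase, fell by 0.68 ± 0.11.

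Within the loop and distal tubule 3 markers rose and 1 fell, where 50.9% of all genes rose and 10% fell. After scaling 2 were higher and 1 lower, where 22.1% and 22.2% of all genes were. Umod, which encodes uromodulin of the thick ascending limb and is the most abundant member, lay at 920.0, 1248 and 1469 TPM in WT and at 816, 897 and 1201 TPM in KO. The highest KO value was again the library labelled KO ZT4 A; the other 11 ended at 1008 TPM, within the WT range. Umod fell by 0.36 ± 0.07 (adjusted p = 3.54e-04) and by 0.51 after scaling. Egf, whose precursor is made by the distal convoluted tubule and thick limb, lay at 192, 258 and 330.2 TPM in WT and at 284, 382 and 577 TPM in KO. It overlapped between groups and rose by 0.61 ± 0.09 (adjusted p = 1.29e-05). Trpm6, the magnesium channel of the distal convoluted tubule, lay at 1.69, 2.27 and 3.14 TPM in WT and 1.92, 4.74 and 5.95 TPM in KO. The lowest KO value was the library labelled KO ZT4 A, and the rise was 0.84 ± 0.16 (adjusted p = 1.69e-04). Pvalb, a calcium-binding protein of the early distal convoluted tubule, lay at 12.3, 15.2 and 18.8 TPM in WT and 9.98, 19.0 and 25.3 TPM in KO. It rose by 0.34 ± 0.13 (adjusted p = 0.0305), but the call rested on the B libraries. KO A libraries lay at 9.98 to 18.3 TPM and KO B libraries at 19.7 to 25.3 TPM. The difference was 0.09 (adjusted p = 0.699) in the A libraries alone and 0.59 (adjusted p = 0.00641) in the B libraries alone, and after scaling Pvalb did not pass (adjusted p = 0.233). All 8 further genes of these segments rose, 7 of them also after scaling; Kcnj1, the potassium channel ROMK, rose by 0.76 ± 0.07 and Slc12a1, the cotransporter NKCC2 of the same thick limb cells that make uromodulin, by 0.72 ± 0.08.

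Krt7, a keratin of collecting duct and urothelium, gave the smallest p of the members. It lay at 30.1, 43.5 and 48.6 TPM in WT and at 39.9, 69.1 and 82.6 TPM in KO. Without the library labelled KO ZT4 A the KO libraries began at 52.7 TPM, above all 12 WT libraries. The rise was 0.71 ± 0.08 (adjusted p = 6.73e-07), and 0.56 after scaling. Gata3, a transcription factor of the collecting duct that mesangial cells also hold, lay at 7.11, 12.1 and 15.7 TPM in WT and 11.1, 17.3 and 22.6 TPM in KO. The groups overlapped, and it rose by 0.57 ± 0.12 (adjusted p = 7.19e-04). Upk3a, a uroplakin of the urothelial plaque, lay at 1.37, 2.47 and 3.48 TPM in WT and at 1.88, 3.74 and 23.1 TPM in KO. The highest value was the library KO ZT8 A, which also held 108 TPM summed over 7 further urothelial genes, against 6.39 to 14.1 TPM in WT. Upk3a rose by 0.80 ± 0.29 (adjusted p = 0.0217), by 0.57 without that library (adjusted p = 0.0159), and did not pass after scaling (adjusted p = 0.067). Hsd17b2, a steroid dehydrogenase, had means of 9.14 ± 1.50 TPM in WT and 9.66 ± 3.34 TPM in KO (SD, n = 12) and did not pass. All 11 further genes of principal and intercalated cells rose, as deposited and after scaling, where 50.9% and 22.1% of all genes did. Scnn1b and Scnn1g, which encode subunits of the epithelial sodium channel, rose by 0.87 ± 0.08 and 0.63 ± 0.07. The 5 tested urothelial genes also rose, 3 of them after scaling, with the same KO ZT8 A library highest for Upk1a (29.9 TPM) and Upk2 (28.7 TPM), further uroplakins.

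Among the endothelial markers 4 of 7 rose and 0 fell, where 50.9% of all genes rose, and after scaling 2 were higher and 1 lower. Plvap, which forms the diaphragms of fenestrated capillaries, lay at 52.9, 69.0 and 78.8 TPM in WT and 70.7, 96.5 and 121 TPM in KO. The ranges overlapped from 70.7 to 78.8 TPM, and Plvap rose by 0.52 ± 0.08 (adjusted p = 3.19e-05), 0.37 after scaling. Pecam1, an adhesion molecule of all endothelium, lay at 13.7, 17.6 and 20.2 TPM in WT and 16.7, 22.3 and 28.3 TPM in KO. It rose by 0.37 ± 0.08 (adjusted p = 7.46e-04), 0.22 after scaling, in overlapping groups. Cdh5, the cadherin of endothelial junctions, rose by 0.22 ± 0.08 (adjusted p = 0.02) and Ehd3, an endocytic protein of glomerular endothelium, by 0.19 ± 0.07 (adjusted p = 0.0247). Neither passed after scaling (adjusted p = 0.402 and 0.57), and both differences lie near the shift of all genes. Cdh5 ranged over 6.63, 8.35 and 9.45 TPM in WT and 6.45, 9.26 and 12.5 TPM in KO; Ehd3 ranged over 7.77, 9.46 and 11.9 TPM in WT and 8.19, 11.2 and 13.8 TPM in KO. Ehd3 also lost its call without KO ZT4 B (adjusted p = 0.0509) or WT ZT12 B (adjusted p = 0.0503). Of the VEGF receptors, Kdr differed by -0.06 ± 0.09 and Flt1 by -0.09 ± 0.09, and neither passed as deposited. After scaling Flt1 was lower by 0.23 (adjusted p = 0.0222), and Kdr sat at the threshold (adjusted p = 0.0554). Emcn, an endothelial sialomucin, differed by 0.07 ± 0.08 and did not pass on either scale. Of 10 further endothelial genes tested 7 rose and 0 fell, 3 of them higher after scaling; the junction genes Esam and Cldn5 rose by 0.49 ± 0.08 and 0.48 ± 0.08.

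A single stromal marker passed as deposited, where 60.9% of all genes did. Acta2, smooth muscle actin, lay at 15.2, 20.9 and 24.4 TPM in WT and 20.95, 25.8 and 34.5 TPM in KO, with overlapping groups. It rose by 0.35 ± 0.09 (adjusted p = 0.002), 0.21 after scaling (adjusted p = 0.0443). The rise was 0.55 in the A libraries alone (adjusted p = 0.0322) and 0.16 in the B libraries alone, where it did not pass (adjusted p = 0.0905). Tagln, another smooth muscle protein, differed by -0.07 ± 0.08, the proteoglycan Dcn by -0.16 ± 0.11, and the PDGF receptors Pdgfrb and Pdgfra by -0.04 ± 0.10 and -0.07 ± 0.12; none of these 4 passed. After scaling Tagln (-0.22, adjusted p = 0.0212) and Dcn (-0.30, adjusted p = 0.028) were called lower. Of 8 further stromal and mural genes 3 rose (2 after scaling), among them the smooth muscle myosin Myh11 by 0.36 ± 0.07 and the mesangial integrin Itga8 by 0.66 ± 0.15.

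Of the 5 immune markers tested 3 fell and 0 rose, where 10% of all genes fell. After scaling 4 were lower and 0 higher, where 22.2% of all genes were lower. Csf1r, the receptor for the macrophage growth factor, lay at 12.0, 13.2 and 16.3 TPM in WT and at 8.89, 10.4 and 14.2 TPM in KO. The groups overlapped through both KO libraries of ZT4, 14.2 TPM in A and 13.4 TPM in B. It fell by 0.33 ± 0.06 (adjusted p = 9.01e-05). Adgre1, the macrophage surface protein F4/80, lay at 1.08, 1.64 and 2.26 TPM in WT and at 0.574, 1.11 and 1.49 TPM in KO. C1qa, a complement subunit made by macrophages, lay at 10.97, 12.8 and 21.3 TPM in WT and at 7.33, 10.6 and 13.7 TPM in KO. Adgre1 fell by 0.54 ± 0.14 (adjusted p = 0.00327) and C1qa by 0.44 ± 0.12 (adjusted p = 0.00344), both in overlapping groups. The leukocyte antigen Ptprc differed by -0.14 ± 0.11 and the lysosomal protein Cd68 by -0.12 ± 0.13; neither passed, though Ptprc was called lower after scaling (adjusted p = 0.0353). Of 6 further immune genes tested 1 rose, the endotoxin receptor Cd14 (0.25 ± 0.10), and 1 fell, the antigen-presentation chain Cd74 (-0.37 ± 0.11). After scaling Cd14 did not pass (0.11, adjusted p = 0.387) and Cd74 did.

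The immune markers also split by letter within WT, a pattern noticed while looking over all members by letter. Adgre1 lay at 1.08 to 1.62 TPM in the 6 WT A libraries and at 1.66 to 2.26 TPM in the 6 WT B libraries. C1qa lay at 10.97 to 12.5 and 13.1 to 21.3 TPM, Ptprc at 1.88 to 2.65 and 2.76 to 3.50 TPM, and Cd3e at 0.228 to 0.351 and 0.456 to 0.807 TPM in the same libraries. None of these 4 overlapped between the letters in WT, and all overlapped in KO. The share of all genes that split by letter in this way was not counted. On the second principal component of the libraries A lay above B at 6 of 6 times in WT and 2 of 6 in KO. The split is therefore not shown to be particular to immune markers. The labels do not say what the letters stand for. In the A libraries alone the genotype difference was -0.24 for Adgre1 (adjusted p = 0.325), -0.14 for C1qa (adjusted p = 0.233) and -0.25 for Csf1r (adjusted p = 0.0824). In the B libraries alone it was -0.83 (adjusted p = 0.00392), -0.73 (adjusted p = 0.0141) and -0.42 (adjusted p = 0.0032). The fall of the immune markers was therefore called in the B libraries and not in the A libraries. The libraries labelled KO ZT4 A and KO ZT12 A, which stood apart, are both A libraries. KO ZT4 A held the highest KO value of Csf1r (14.2 TPM). The difference between the letters, and the part of these libraries in it, was not tested.

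**Figure D2:**
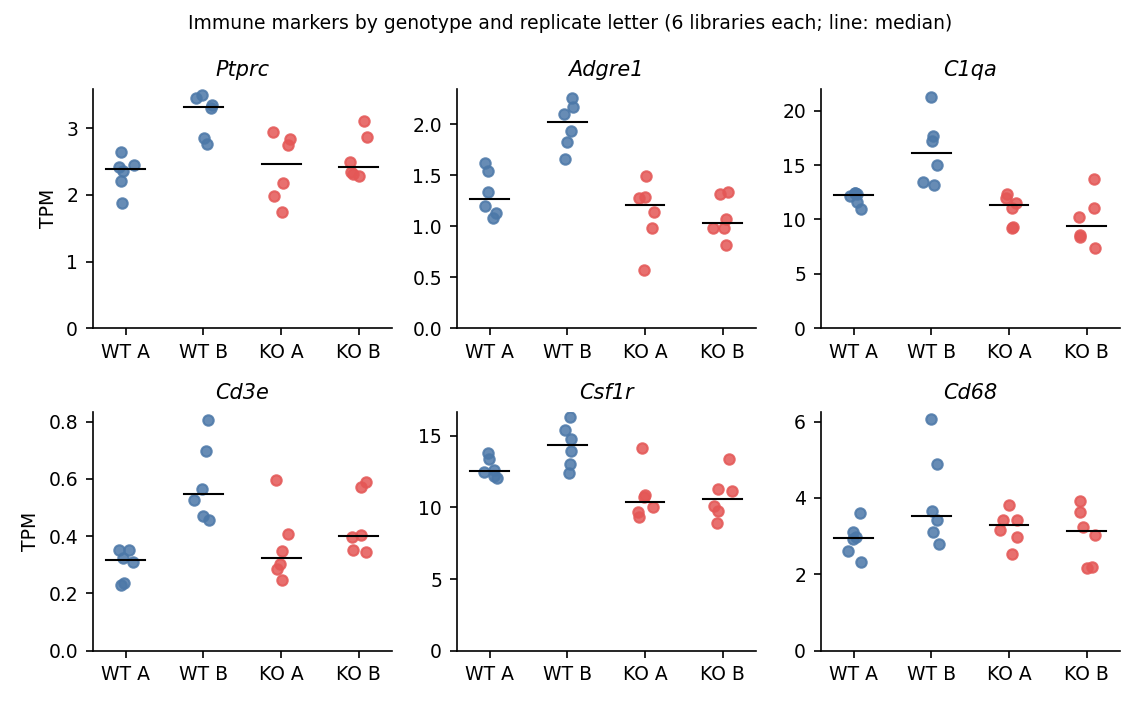
TPM (y axis, from 0) of 6 immune markers in the 6 libraries of each genotype and letter (x axis), with the median as a line. For Ptprc, Adgre1, C1qa and Cd3e the WT A and WT B libraries do not overlap (Adgre1: 1.08 to 1.62 against 1.66 to 2.26 TPM), whereas the KO letters do.

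Ratios between classes do not depend on how a library is scaled. They do depend on the proximal tubule markers they are divided by. Of these Hnf4a was called lower in KO on both scales, and Lrp2 after scaling. How far this moves the ratios was not tested. The summed podocyte markers made up 17.0, 19.3 and 22.6% of the summed proximal tubule markers in WT (lowest, median and highest) and 22.7, 26.1 and 32.1% in KO. These ranges did not overlap over 12 and 12 libraries, although the lowest KO value, the library labelled KO ZT4 A, lay next to the highest WT value. The highest KO value, 32.1%, was the library labelled KO ZT12 A. Other epithelium made up 17.8 to 24.5% in WT and 21.6 to 53.5% in KO, and 27.0 to 53.5% without that library. The 53.5% was the library KO ZT8 A, which also held the most urothelial transcripts and the lowest proximal sum (246 TPM). The next highest was KO ZT0 A at 38.7%. Endothelium made up 45.9 to 63.2% and 58.4 to 88.5%, stroma 18.2 to 29.2% and 18.7 to 34.7%, and immune cells 8.92 to 17.8% and 7.18 to 12.0%. The loop and distal sum, which is mostly Umod, made up 370.1 to 556% and 398 to 520.0%. The proximal sum itself lay at 286 to 344 TPM in WT and 246 to 337 TPM in KO. These sums are descriptions and were not tested.

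**Figure D3:**
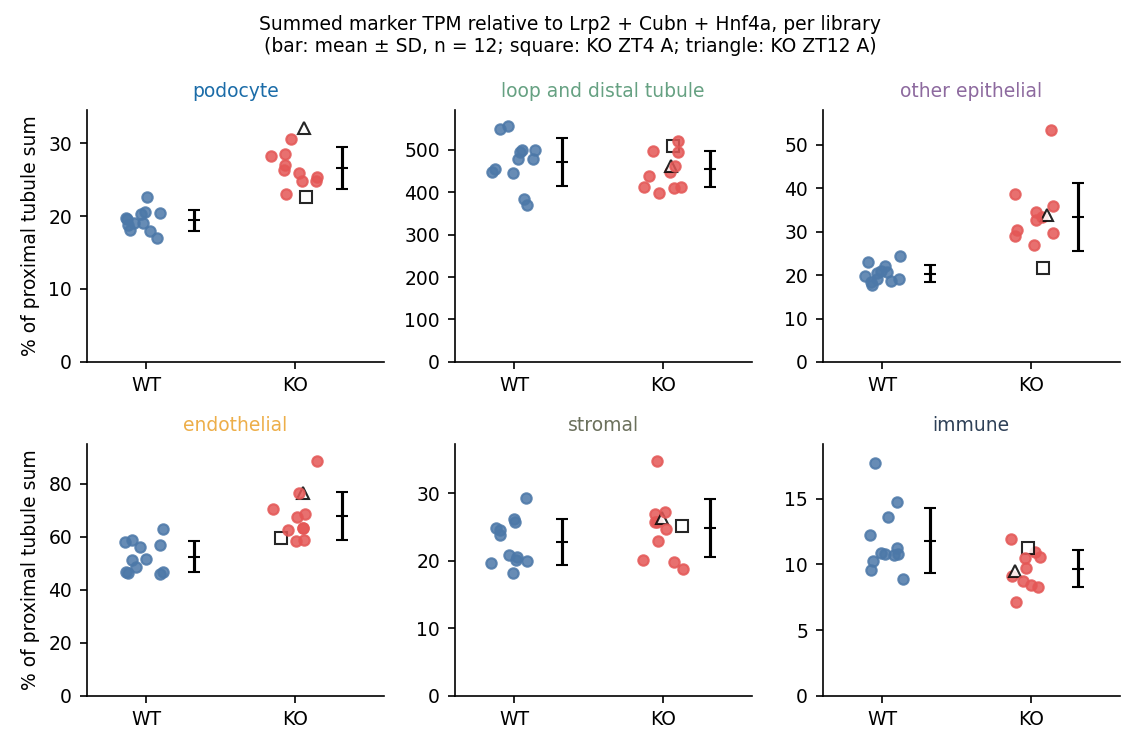
Summed TPM of each marker class as a percentage of the summed proximal tubule markers Lrp2, Cubn and Hnf4a (y axis, from 0), 1 point per library, with mean ± SD (n = 12) beside the points. Squares are the library labelled KO ZT4 A and triangles the one labelled KO ZT12 A; the podocyte ratio is the one whose WT (up to 22.6%) and KO (from 22.7%) libraries do not overlap.

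Genes listed for blood and for other tissues were looked at in the same libraries. Summed blood cell genes lay at 827 to 2092 TPM in WT and 1054 to 2551 TPM in KO, with 3 of 6 tested genes higher (none after scaling) and 1 lower; the haemoglobin genes Hbb-bs and Hba-a1 rose by 0.44 ± 0.15 and 0.34 ± 0.12. Perirenal fat genes summed to 0.310 to 29.7 TPM in WT and 0.300 to 34.3 TPM in KO with 0 of 3 called; the 2 with the smallest p were Ucp1 (-1.16 ± 1.06) and Cfd (-0.16 ± 1.07). Of 4 liver genes tested 2 rose and 1 fell, the same counts after scaling: Alb fell by 2.10 ± 0.22 (means 2.51 TPM in WT and 0.601 TPM in KO) and Fgb rose by 1.82 ± 0.30 (0.449 and 1.74 TPM). The third was Ttr, the thyroid hormone carrier, named after its values were seen, which rose by 0.92 ± 0.18 (adjusted p = 3.30e-04) from a mean of 49.0 to 88.5 TPM. No adrenal gene passed the filter. The liver genes called did not share a direction. Whether any of these lists measures tissue other than kidney, and their part in the marker differences, was not tested.

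A 24-hour rhythm was tested in each genotype with a cosine and a sine. In WT 3 of the 32 markers passed, where 13.7% of all genes did. Umod in WT had means of 1311, 977, 1042, 1160, 1324 and 1353 TPM at ZT0, ZT4, ZT8, ZT12, ZT16 and ZT20 (2 libraries each). Its fitted peak was at 18.8 h, with a peak-to-trough of 0.48 ± 0.11 (log2, SE; adjusted p = 0.0125). Krt7 in WT had means of 44.2, 35.8, 30.6, 38.9, 45.6 and 47.9 TPM at those times. It peaked at 19.5 h with a peak-to-trough of 0.62 ± 0.15 (adjusted p = 0.0245), and lost the call without WT ZT8 A (adjusted p = 0.0828) or WT ZT8 B (adjusted p = 0.0723). Tagln in WT had means of 21.8, 21.1, 15.7, 15.4, 19.4 and 24.4 TPM, a peak at 22.2 h and a peak-to-trough of 0.65 ± 0.14 (adjusted p = 0.00867). By these means Umod was lowest at ZT4, Krt7 at ZT8 and Tagln at ZT12, and all of them were highest at ZT20. Fitted to the WT libraries alone, 10 markers passed. Without the libraries labelled KO ZT4 A and KO ZT12 A, 5 did, with Acta2 and Synpo added. The 13.7% of all genes belongs to the main fit and not to these fits. With WT fitted alone the count over all genes rose as well, and it is given in the closing section. Without the libraries labelled KO ZT4 A and KO ZT12 A the count over all genes is not given here.

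In KO 0 of the 32 markers passed, where 3.64% of all genes did, and 5 had an unadjusted p under 0.05. Csf1r came closest, with a peak-to-trough of 0.44 ± 0.11 at 5.29 h (adjusted p = 0.0505), and it passed with a filter of 5 TPM (adjusted p = 0.0411), with the replicate block (adjusted p = 0.0439, or 0.039 with a letter effect in each genotype), and without KO ZT8 A (0.0374), WT ZT12 A (0.0439) or WT ZT12 B (0.0402). Its highest KO libraries were both at ZT4. The higher of them, at 14.2 TPM, was the library labelled KO ZT4 A, which goes against its label. Peak-to-trough in KO was 0.23 ± 0.11 for Umod, 0.49 ± 0.15 for Krt7 and 0.36 ± 0.14 for Tagln. The difference in rhythm between genotypes passed for 0 of the 32 markers and for 0.629% of all genes, with 6 markers at an unadjusted p under 0.05. Umod had the smallest p among the members by limma's moderated F, with an adjusted p of 0.0909 over all genes. A rhythm called in WT and not in KO is therefore not shown to differ between them for any marker.

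**Figure D4:**
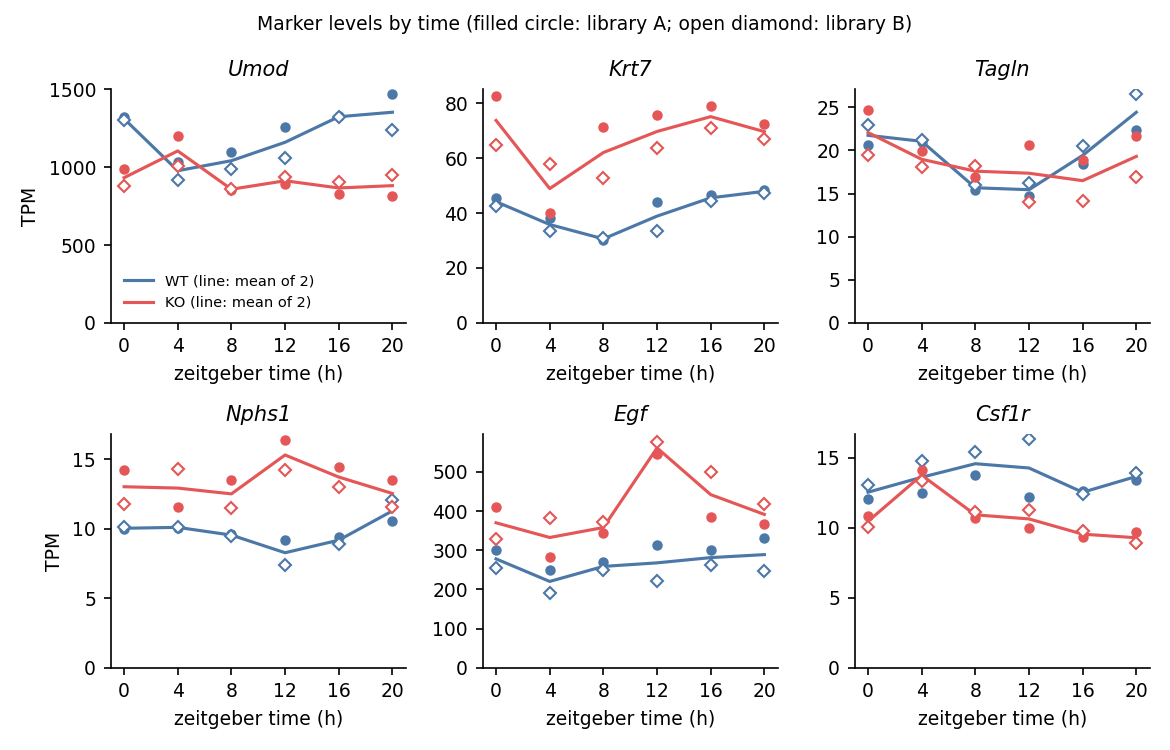
TPM (y axis, from 0) of 6 markers against zeitgeber time in hours (x axis), with filled circles for library A, open diamonds for library B and lines through the mean of 2. Umod, Krt7 and Tagln passed the rhythm test in WT (Umod from 977 TPM at ZT4 to 1353 TPM at ZT20), none of the 6 passed in KO, and Csf1r in KO is highest at ZT4.

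Relations across libraries were tested between markers of 1 cell type or structure, and against Lrp2. Over 15 gene pairs in 2 genotypes, 30 relations in all, 15 passed (permutation test of Pearson's r on log2(TPM + 0.1), two-sided, 12 libraries, Benjamini-Hochberg over the 30): 13 of 20 within a type or structure and 2 of 10 against Lrp2. After median-of-ratios scaling 10 of the 20 passed; of the 10 against Lrp2 both calls, Nphs1 and Pdgfrb in WT, were lost (adjusted permutation p = 0.143 and 0.0517) and Csf1r in WT passed with r of -0.69 (adjusted permutation p = 0.0389). With each library taken as its deviation from the mean of its genotype and time, 0 of the 30 passed (smallest adjusted permutation p = 0.0537). That test had 6 values per genotype, 1 per time, in place of 12 libraries, and so less power. The endothelial genes Cdh5 and Pecam1 had r of 0.89 in WT (permutation p = 2.60e-04, adjusted p = 0.0032; rho 0.87, permutation p = 5.50e-04) and 0.89 in KO (permutation p = 3.20e-04, adjusted p = 0.0032; rho 0.67, permutation p = 0.0201). Without the 2 libraries farthest from the median of Cdh5, r was 0.82 and 0.69. The smooth muscle genes Acta2 and Tagln had r of 0.90 in WT (permutation p = 4.00e-05, adjusted p = 0.0012; rho 0.92, permutation p = 1.00e-04) and 0.76 in KO (permutation p = 0.00337, adjusted p = 0.0122; rho 0.76, permutation p = 0.00568), and r of 0.84 and 0.79 without the 2 farthest. Umod and Egf had r of 0.81 in WT (permutation p = 0.00133, adjusted p = 0.00665; rho 0.78, permutation p = 0.00439; 0.72 without the 2 farthest) and -0.25 in KO (permutation p = 0.441, adjusted p = 0.509; rho 0.15, permutation p = 0.653), where r was 0.47 without the 2 farthest, so the KO sign rests on those libraries. Csf1r and C1qa had r of 0.85 in WT (permutation p = 7.10e-04, adjusted p = 0.00498; rho 0.73, permutation p = 0.00978; 0.78 without the 2 farthest) and 0.23 in KO (permutation p = 0.472, adjusted p = 0.524; rho 0.17, permutation p = 0.603; 0.12 without the 2 farthest). Without the libraries labelled KO ZT4 A and KO ZT12 A, 10 KO libraries remained. In these r was 0.39 for Umod and Egf (adjusted permutation p = 0.377) and 0.24 for Csf1r and C1qa (0.557). The KO call of Nphs1 and Wt1 (r of 0.69) was lost in them (r of 0.37, adjusted permutation p = 0.384), and the other KO calls were kept. Differences in r between the genotypes were not tested. C1qa did not overlap between the letters in WT (10.97 to 12.5 TPM in A, 13.1 to 21.3 TPM in B) and did in KO. The part of the letters in these relations was not tested. Nphs1 and Ehd3, both of the glomerulus, did not pass in either genotype (r of 0.29 and 0.56, permutation p = 0.361 and 0.0572, adjusted p = 0.433 and 0.101; rho 0 and 0.59, permutation p = 1 and 0.0484; r of -0.27 and 0.50 without the 2 farthest). Time and library composition are shared by all these points. On the deviations, r in WT and KO was 0.76 and 0.92 for Cdh5 and Pecam1, and 0.63 and 0.88 for Acta2 and Tagln. It was 0.91 and 0.16 for Umod and Egf, 0.93 and -0.30 for Csf1r and C1qa, and 0.81 and 0.41 for Nphs1 and Ehd3.

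**Figure D5:**
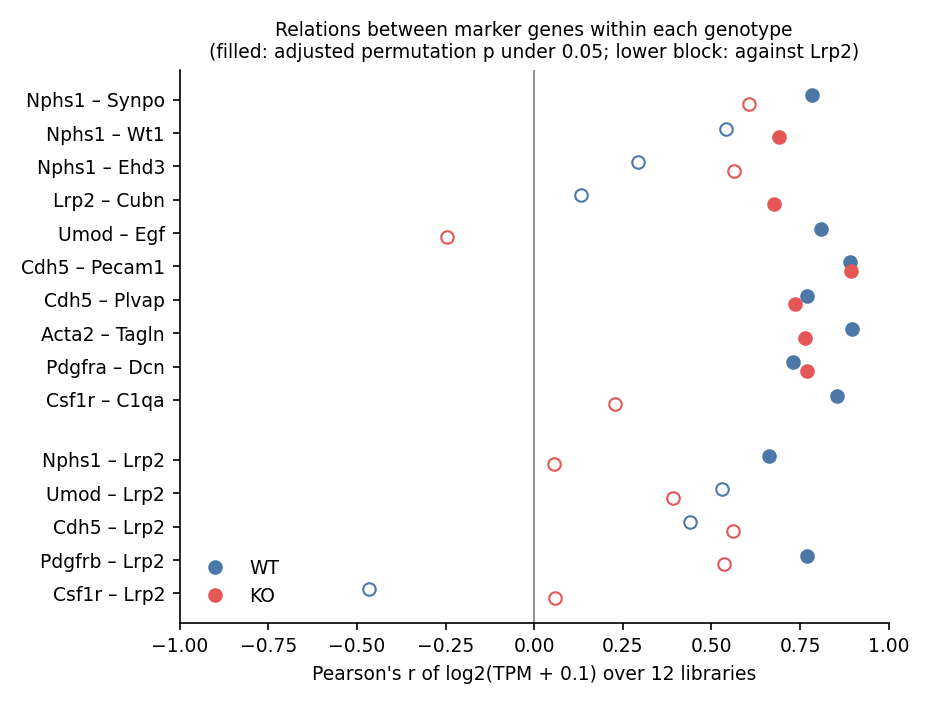
Pearson's r (x axis) of log2(TPM + 0.1) over the 12 libraries of each genotype for 15 gene pairs (y axis), the upper 10 within a cell type or structure and the lower 5 against Lrp2; filled points passed an adjusted permutation p of 0.05. Of the 20 relations in the upper block 13 are filled, and of the 10 in the lower block 2.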

How the data were processed

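PolyA RNA of 24 kidney libraries (12 WT, 12 KO) was quantified with kallisto 0.42.4, per the submitters' processing notes, which also name mm10 and GRCm38; the deposited values are TPM per transcript, already divided by length and library total by the authors. TPM of 86119 of 88198 transcripts were summed to genes by GENCODE M21; the 2079 unmatched held 1.35 to 2.24% of a library. TPM keeps no read depth, so counting error is unknown. The 12874 genes whose mean reached 1 TPM were tested with limma 3.58.1 (R 4.3.3) on log2(TPM + 0.1), a scale that understates changes of low genes, with trend and robust variance. Genotype was tested with time as a 6-level factor over 24 libraries, rhythm with a 24 h cosine and sine per genotype; p-values were Benjamini-Hochberg adjusted over all genes tested, at 0.05. Alternatives were median-of-ratios scaling, other pseudocounts and filters, blocks and left-out libraries. Relations used 100000 permutations (Python 3.11.15). On simulated data with 200 genes changed by 1 log2 unit among 12874 genes, 97% of genotype changes were recovered, and in the same size 79% of rhythms in WT, 81.5% in KO and 69.5% of differences in rhythm (400 genes). That size is above every member's genotype difference (up to 0.84) and every called rhythm of a member (up to 0.65). The rates therefore do not give the power for the markers. All members are named; full values were given for those past a threshold and the most abundant of each class, and further lists by their 2 smallest p-values; some genes that this rule names are not reported here. The members, lists and motifs were chosen with earlier results of these data known. By the correlations, letters did not pair WT with KO: A-minus-B differences at the same time correlated between -0.09 and 0.15, and over all pairs of groups between -0.32 and 0.34. On the second principal component A lay above B at 6 of 6 times in WT and 2 of 6 in KO. The 20 chromatin-contact libraries were not analysed here.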

Additional observations from a re-analysis of the deposited data

How the results depend on the processing

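No marker called between genotypes as deposited changed direction under the alternatives run. Lrp2, not called and near 0 as deposited, was called lower at -0.15 after median-of-ratios scaling, -0.16 with that scaling and no KO ZT4 A library, and -0.15 with size factors from all genes above 0. The last form was the one tried first; size factors from the genes tested replaced it after its result had been seen, and with it Kdr was called lower (adjusted p = 0.0495 instead of 0.0554). Under these 3 scalings 2844, 2978 and 2767 genes were higher, and 10, 10 and 11 markers lower in KO. In the A libraries alone, with fewer samples by construction, 2868 genes were called, 2367 higher, and 10 markers, 9 higher and 1 lower. The B libraries alone gave 17 markers, and their count over all genes is not given here. Calls lost in both letters were those of Hnf4a, Cdh5 and Ehd3, in A only those of Podxl, Pvalb, Upk3a, Pecam1, Csf1r, Adgre1 and C1qa, and in B only that of Acta2. The A libraries include those labelled KO ZT4 A and KO ZT12 A. Rhythm calls in WT became 2843 genes and 10 markers with WT fitted alone, and 5 markers without KO ZT4 A and KO ZT12 A. Rhythm calls in KO became 12 genes with KO fitted alone and 295 with no filter, and 1 marker with a filter of 5 TPM or with the replicate block (letter, or letter within each genotype), in each case Csf1r, and 1, Wt1, with size factors from all genes. Differences in rhythm became 124 genes with scaling and no KO ZT4 A, 43 with no filter and 23 with time as a factor. Relations of deviations from the mean of genotype and time (1 value per pair of libraries) gave 0 calls (smallest adjusted p = 0.0537). The cause of these shifts was not tested.

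With the replicate block 7873 genes and 20 markers differed between genotypes, against 7844 and 20 without; it moved no other count by over 1.5 times. Leaving out each library in turn gave 7410 to 8101 genes called, 6129 to 6777 higher, 18 to 20 markers called, 13 to 15 higher and 5 lower in every fit; WT rhythm in 1194 to 2140 genes and 2 to 4 markers; KO rhythm in 272 to 626 genes and 0 to 1 markers; and a difference in rhythm in 37 to 112 genes and 0 markers. Pvalb lost its call without any of KO ZT4 B, KO ZT8 B, KO ZT12 B, KO ZT16 B, WT ZT8 A, WT ZT12 A or WT ZT12 B (adjusted p up to 0.0596). The alternatives that split by letter, drop KO ZT4 A and KO ZT12 A together or use other size factors were chosen after seeing the data. TPM without counts gives no limit for low genes such as Cd3e and Cd79a.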
